A study of Danio rerio with 18 samples.

Results

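The tRNA pool of zebrafish embryos was compared between sphere, a late blastula stage at 4 hours post-fertilization (hpf), and shield, the stage at which gastrulation begins, at 6 hpf. The comparison used 4 of the 12 libraries in which tRNA abundance was measured by mim-tRNAseq, 2 from each stage, out of 18 tRNA libraries in all. Both groups were wild-type embryos of the TLAB strain raised without perturbation, and each sample was lysed from 50 or more whole embryos. Egg, 256-cell, 1000-cell and bud libraries, also 2 each, entered the statistical fits and show where sphere and shield sit in the time course. The labels do not state separate parents for the replicates, so p-values measure the spread between these libraries. All 2600 entries of the count table were followed. They comprised 2578 nuclear entries, of which 2505 were resolved tRNA transcripts and 73 were groups that could not be separated, and 22 mitochondrial tRNAs. The nuclear entries were also summed into 47 anticodon families and 22 amino-acid classes, with initiator methionine (iMet) and selenocysteine (SeC) kept apart. The table holds tRNAs alone, so the stage labels could not be checked against marker genes. Whole embryos were measured, so fewer cells of a type and less tRNA per cell cannot be told apart, and every value is relative to a pool.

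tRNAs carry amino acids to the ribosome and read codons through their anticodon. Transcripts with the same anticodon but a different body are called isodecoders, and families with different anticodons for the same amino acid are isoacceptors. Nuclear tRNA genes are transcribed by RNA polymerase III and exist in very many copies in the zebrafish genome. The early embryo starts with a maternal tRNA supply. The study places the major wave of zygotic mRNA synthesis in the blastula. It proposes that most zygotic tRNA expression comes later, as gastrulation begins. Whether a gain in share came from new transcription was not tested here. Adenosine at the first anticodon position is edited to inosine in the cell, which lets a tRNA read several codons. Leu, Ser and SeC tRNAs have a long variable arm and are longer than the other tRNAs, and are therefore also given apart. Mitochondria encode their own tRNAs and transcribe them with a separate polymerase.

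Sphere libraries held 3061903 and 2216434 counts and shield libraries 5757862 and 5617186. Nuclear entries took 2559460 and 1848222 of them at sphere and 5070210 and 4954932 at shield. A count of 0 allowed up to 3 counts, or 0.000117% and 0.000162% of nuclear counts at sphere and 5.92e-05% and 6.05e-05% at shield. Detection meant a share of 0.005% of nuclear counts or more in any of the 12 libraries. This kept 607 transcripts, which added up to between 71.1% and 73.3% of the nuclear counts in the 4 libraries. The 1898 others together held between 0.927% and 1.11%, and 219 of these had no count in any of the 4 libraries.

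The shield libraries differed more from each other than the sphere libraries did. The median absolute log2 ratio between replicates over detected transcripts was 0.25 at sphere and 0.32 at shield. The median absolute change between the stage means was 0.33, and means vary less than single libraries. The change exceeded both replicate ratios in 211 of 607 transcripts. At shield, 63 transcripts were over 2-fold higher in replicate 1 and 18 in replicate 2, and at sphere the counts were 34 and 15. Of the 63, 15 were long-arm tRNAs, and of the 18, 2 were. At sphere 3 of the 34 and 3 of the 15 were. Long-arm tRNAs made up 105 of the 607 detected transcripts. Replicates of a stage were not repeat deposits of the same library, with a chi-square per degree of freedom of 36.5 at sphere and 156 at shield.

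The rises from sphere to shield that passed the test were those of single, mostly rare isodecoders. Of the 607 detected transcripts 10 rose by the DESeq2 Wald test at an adjusted p of at most 0.05, which is 1.65% of those tested. None fell by that test, although 47 (7.74%) had a lower fitted value at an unadjusted p under 0.05 and 54 (8.9%) a higher one. The quasi-likelihood test of edgeR called 4 transcripts, all higher and all among the 10, and 85 at an unadjusted p under 0.05. The 10 belonged to 10 different anticodon families and 8 amino acids. They held 0.430% of nuclear counts in both sphere libraries and 0.936% and 0.897% at shield. At bud their summed share was 3.05% and 2.93%, and in the 6 libraries before sphere it lay between 0.318% and 0.540%. The count of calls depended on how DESeq2 filters rows before it adjusts p-values. Filtering set for 0.05 gave 31 calls (23 higher, 8 lower), and adjustment over the detected transcripts alone gave 20 (16 higher, 4 lower), both alternatives chosen after the data were seen.

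**Figure D1:**
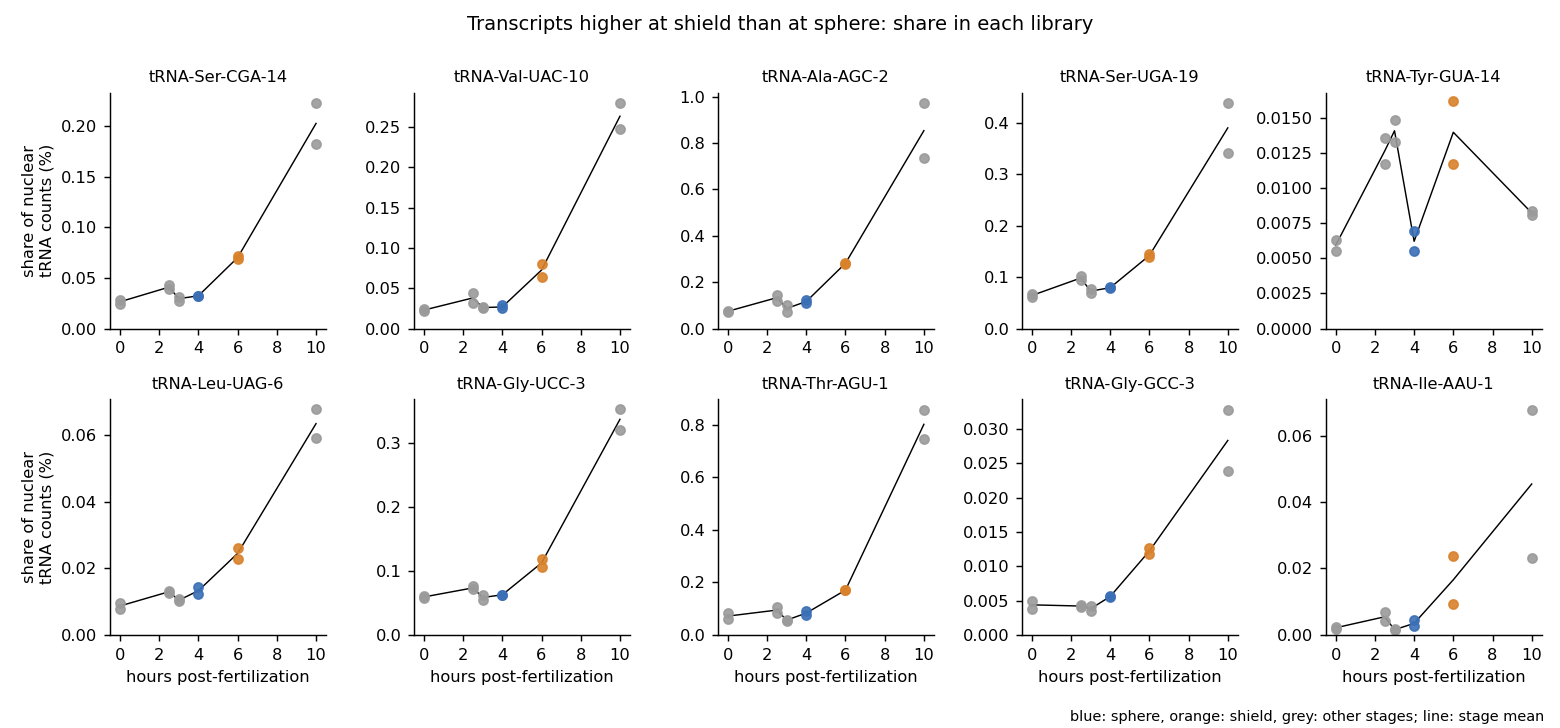
Share of nuclear tRNA counts (y axis, percent) against hours post-fertilization (x axis) for the 10 transcripts that rose from sphere to shield, with a point for each library and a line through the stage means. Sphere points (blue) lie below shield points (orange) in every panel, and tRNA-Tyr-GUA-14 is the panel in which the 256-cell and 1000-cell libraries reach shield levels and bud lies lower.

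The rise with the smallest p-value was in the Ser-CGA family, which reads the serine codon UCG. Its isodecoder tRNA-Ser-CGA-14 had 864 and 829 normalized counts at sphere and 1756 and 1800 at shield. All values of either stage lay close together and the stages did not overlap. The log2 change was 1.07 ± 0.18 (SE, n = 2 per stage, DESeq2 adjusted p 5.17e-06). tRNA-Ser-CGA-14 made up 24.0% and 22.5% of its family at sphere and 42.8% and 43.6% at shield, while the whole Ser-CGA family changed by 0.23 ± 0.16 on the log2 scale (DESeq2 adjusted p 0.479). Family shares are parts of a whole, so the other Ser-CGA members together had to lose share. tRNA-Ser-CGA-11 went from 16.2% and 17.8% of the family to 11.9% and 12.4%, tRNA-Ser-CGA-4 from 17.3% and 14.7% to 11.5% and 11.4%, and tRNA-Ser-CGA-25 from 11.9% and 13.3% to 8.20% and 7.54%. In normalized counts none of them was called (DESeq2 adjusted p 0.659, 0.688 and 0.470). tRNA-Ser-CGA-7 overlapped, with 6.06% and 9.08% of the family at sphere and 6.69% and 8.31% at shield. By bud, tRNA-Ser-CGA-14 held 79.0% and 75.6% of the family.

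Ser-UGA, which reads UCA, contains tRNA-Ser-UGA-19, an isodecoder that the study had named from these samples, so its rise is not independent evidence. It had 2104 and 2053 normalized counts at sphere and 3555 and 3652 at shield (log2 change 0.79 ± 0.18, DESeq2 adjusted p 0.00347). Its share of nuclear counts went from 0.0790% and 0.0800% to 0.144% and 0.140%. Within the family it held 24.2% and 22.1% at sphere but 24.9% and 36.1% at shield, so the shield libraries agreed on its level and not on its place in the family. Other members of the family differed between the shield libraries, among them tRNA-Ser-UGA-10, which took 20.6% of Ser-UGA counts in shield replicate 1 and 5.26% in replicate 2, against 5.95% and 7.38% at sphere. tRNA-Leu-UAG-6, the third long-arm transcript to rise, reads the leucine codon CUA. It had 329 and 367 normalized counts at sphere and 646 and 596 at shield (log2 change 0.84 ± 0.20, DESeq2 adjusted p 0.00673).

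Val-UAC decodes GUA, and its rare isodecoder tRNA-Val-UAC-10 had 667 and 734 normalized counts at sphere and 1986 and 1683 at shield. The log2 change was 1.39 ± 0.25 (DESeq2 adjusted p 1.55e-05). It held 1.72% and 1.78% of its family at sphere and 5.06% and 4.13% at shield. The inosine-bearing alanine tRNAs of the Ala-AGC family come almost entirely as 2 isodecoders. tRNA-Ala-AGC-2 rose from 2968 and 3118 normalized counts to 6970 and 7301 (log2 change 1.23 ± 0.28, DESeq2 adjusted p 0.00245). It made up 3.10% and 3.82% of the family at sphere and 8.27% and 7.80% at shield. tRNA-Ala-AGC-3, the bulk of the family and another transcript named by the study, had 92742 and 78488 normalized counts at sphere and 77315 and 86266 at shield, which overlap (log2 change -0.07 ± 0.20, DESeq2 adjusted p 0.947).

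In glycine tRNAs both called transcripts were minor members of families that did not themselves pass the test. tRNA-Gly-UCC-3, a reader of GGA, had 1683 and 1607 normalized counts at sphere and 2612 and 3113 at shield (log2 change 0.80 ± 0.20, DESeq2 adjusted p 0.0078). tRNA-Gly-GCC-3, which reads GGC and GGU, had 150 and 143 at sphere and 312 and 308 at shield (log2 change 1.08 ± 0.28, DESeq2 adjusted p 0.0156). It accounted for no more than 0.595% of Gly-GCC counts in any of the 4 libraries. The fitted log2 changes of their families were 0.15 ± 0.13 for Gly-UCC and -0.04 ± 0.17 for Gly-GCC, neither of them called.

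tRNA-Tyr-GUA-14 was the exception in the time course. It had 147 and 178 normalized counts at sphere and 400 and 306 at shield (log2 change 1.13 ± 0.27, DESeq2 adjusted p 0.00414). Its share was 0.00551% and 0.00693% at sphere and 0.0163% and 0.0117% at shield, but already 0.0149% and 0.0133% at 1000-cell, and it was 0.00807% and 0.00841% at bud. The sphere libraries were low against the stage on either side. In the 9 other transcripts all 8 libraries from egg to sphere lay below both shield libraries. The more abundant tyrosine isodecoder tRNA-Tyr-GUA-1 had 4244 and 4864 normalized counts at sphere and 7346 and 10331 at shield and missed the threshold (log2 change 0.96 ± 0.29, DESeq2 adjusted p 0.0748).

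tRNA-Ile-AAU-1, a minor isoleucine isodecoder that reads AUU and AUC, had the largest fitted rise of the detected transcripts and the widest error of the 10. It had 118 and 65 normalized counts at sphere and 586 and 245 at shield, which were 113, 47, 1208 and 464 deposited counts. The log2 change was 2.18 (95% interval 1.04 to 3.32, DESeq2 adjusted p 0.0176), and without shield replicate 1 the value was 1.42 and was not called. tRNA-Thr-AGU-1 rose within a family that did not. It had 2419 and 1940 normalized counts at sphere and 4225 and 4424 at shield (log2 change 0.99 ± 0.25, DESeq2 adjusted p 0.0078), and its part of the Thr-AGU family went from 3.27% and 2.66% to 8.76% and 7.78%.

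Each of the 10 stayed higher at shield when any of the 12 libraries was left out, and each was called in 8 to 10 of the 12 such fits. All the lost calls came from leaving out a sphere or a shield library, which leaves a stage with 1 library that is assumed to vary like the others. The number of calls was 1 without sphere replicate 1, 1 without sphere replicate 2 and 0 without shield replicate 1, and it was 17 and 16 without 1000-cell replicate 1 and 2. In a fit of the 4 sphere and shield libraries alone there were 6 calls (5 higher, 1 lower), of which 4 were among the 10.

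By gene copies, 3 of the 10 came from transcripts with 1 gene (of 367 detected), 5 from those with 2 to 5 genes (of 168), 2 from those with 6 to 20 (of 46) and 0 from those with over 20 (of 26). The median log2 change was -0.05, -0.16, -0.05 and -0.02 in these classes, against -0.08 over all detected transcripts. Among those with over 20 genes tRNA-Lys-UUU-6, with 128, came nearest to the threshold. It had 2173 and 1466 normalized counts at sphere and 6158 and 3724 at shield. Its log2 change of 1.44 ± 0.42 missed the threshold (DESeq2 adjusted p 0.0541) but passed it in 8 of 9 other settings.

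**Figure D2:**
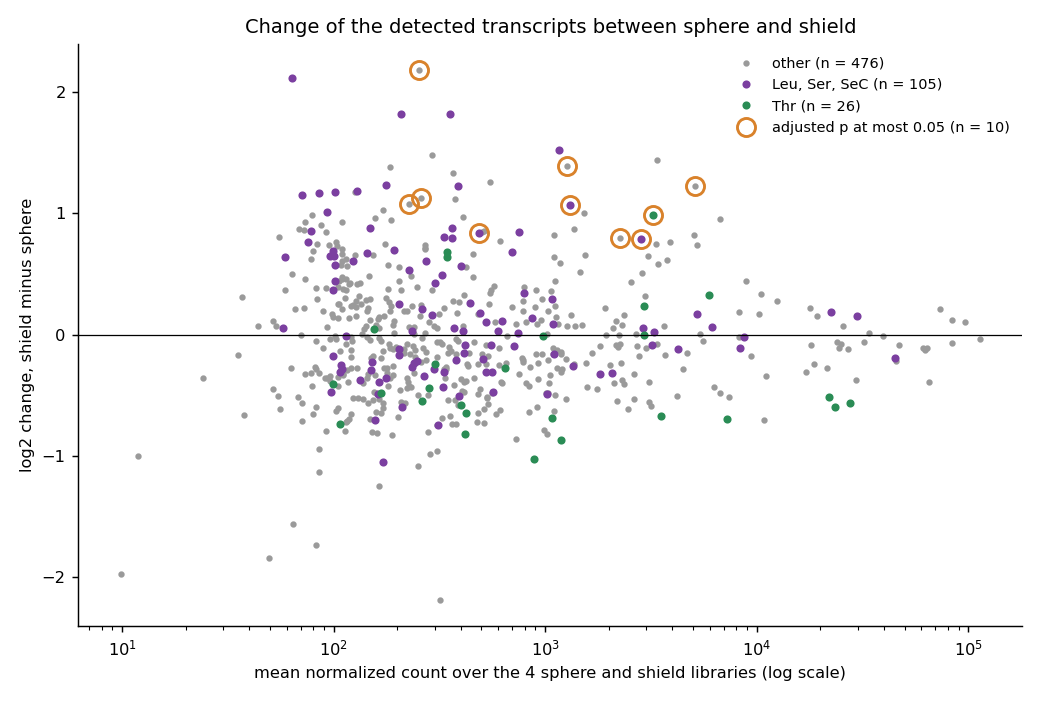
Log2 change from sphere to shield (y axis) of the 607 detected transcripts against their mean normalized count over the 4 libraries (x axis, log scale). Circles mark the 10 called transcripts, violet the 105 long-arm transcripts and green the 26 Thr transcripts, most of which lie below 0.

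A fitted change over 1 on the log2 scale was seen in 37 detected transcripts, 26 higher and 11 lower, and 6 of these were called. Of the other 31, 18 differed over 2-fold between the shield libraries and 10 had a mean normalized count under 100. In shares of nuclear counts, which need no size factor, 126 transcripts were higher and 151 lower in both shield libraries than in both sphere libraries, or 45.6% of those detected. With 2 libraries against 2, random order of the libraries alone would separate a fraction of 0.333, so most of these are not evidence of a change. The 5 largest gains in percentage points among the 126 included both abundant and rare transcripts. tRNA-Glu-CUC-1, the main reader of the glutamate codon GAG, went from 2.86% and 2.35% to 3.15% and 3.08% of nuclear counts. tRNA-Gly-UCC-2 went from 3.01% and 3.10% to 3.44% and 3.41%, and tRNA-Ser-AGA-87 from 1.01% and 1.14% to 1.27% and 1.195%. None of these 3 passed the test, with DESeq2 adjusted p of 0.797, 0.922 and 0.892. The gains between them in rank were those of tRNA-Tyr-GUA-1, from 0.159% and 0.189% to 0.298% and 0.396%, and of the called tRNA-Ala-AGC-2, from 0.111% and 0.121% to 0.283% and 0.280%. tRNA-Glu-CUC-21 went from 0.121% and 0.158% to 0.296% and 0.215% (log2 change 0.83 ± 0.25, DESeq2 adjusted p 0.0748).

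On the falling side tRNA-Ala-CGC-1, the main Ala-CGC isodecoder, had the largest drop in share, from 2.98% and 2.70% to 2.56% and 1.93% (DESeq2 adjusted p 0.474). tRNA-Phe-GAA-5 went from 1.202% and 1.33% to 0.951% and 1.07%, and tRNA-Phe-GAA-10 from 0.139% and 0.152% to 0.0842% and 0.114% (DESeq2 adjusted p 0.465 for both). tRNA-Arg-UCG-8, a reader of the arginine codon CGA, had 13896 and 12995 normalized counts at sphere and 8106 and 8382 at shield (log2 change -0.71 ± 0.22, DESeq2 adjusted p 0.0748). It went from 49.6% and 51.4% of the Arg-UCG family to 33.7% and 31.8%, while the family as a whole was at -0.02 ± 0.12.

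The median change of a whole anticodon family was near the median difference between replicates, and the family that passed the test carries threonine. The median absolute change of a family, taken between means of 2 libraries, was 0.13 on the log2 scale. Ratios between single replicates had medians of 0.13 at sphere and 0.17 at shield. Means vary less than single libraries, so these are not like for like. The change exceeded both replicate ratios in 12 of 47 families. Of the 47 families 1 was called, Thr-CGU, which was lower at shield (2.13% of those tested). The edgeR test called 0 families and had 5 at an unadjusted p under 0.05, where DESeq2 had 6 (12.8%). Family shares did not overlap between the stages in 21 families (44.7%), 9 higher and 12 lower at shield. Random order of the libraries alone would give a fraction of 0.333.

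**Figure D3:**
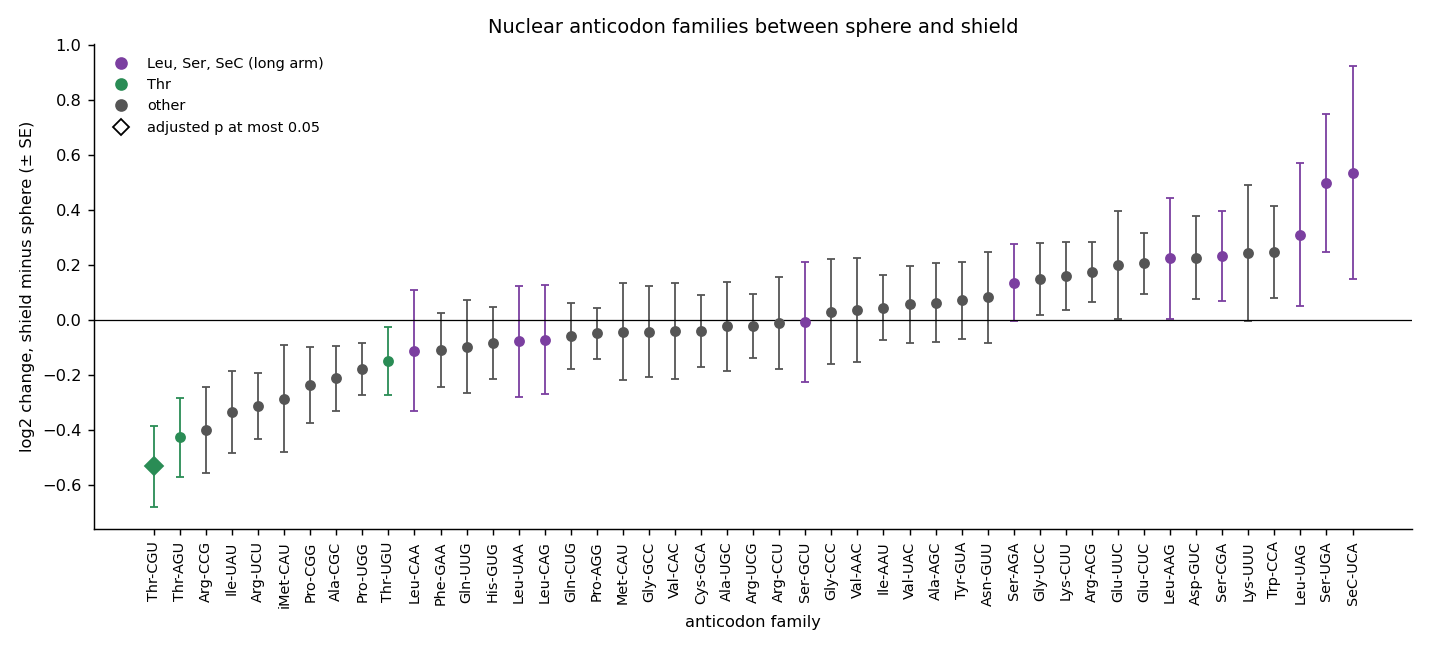
Log2 change from sphere to shield with its standard error (y axis) for the 47 nuclear anticodon families (x axis), ordered by value. Thr-CGU, the diamond at the left with -0.53, is the family that passed the threshold, Thr-AGU lies next to it, and the families with a long arm (violet) run from -0.11 for Leu-CAA to 0.54 for SeC-UCA.

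Thr-CGU reads the threonine codon ACG. It held 2.37% and 2.46% of nuclear counts at sphere and 1.52% and 1.79% at shield. In normalized counts these were 63000 and 66658 against 40836 and 48867, with both shield libraries below both sphere libraries. The log2 change was -0.53 (95% interval -0.82 to -0.24, DESeq2 adjusted p 0.0132, edgeR adjusted p 0.102). Thr-AGU, the inosine-bearing family that reads ACU and ACC, held 2.77% and 2.84% at sphere and 1.959% and 2.18% at shield (log2 change -0.43 ± 0.14, DESeq2 adjusted p 0.0714). It passed the threshold in a fit of the 4 libraries alone (DESeq2 adjusted p 0.0262) and without 256-cell replicate 1 or 2 (0.0247 and 0.0408). Thr-UGU, which reads ACA, held 0.795% and 0.817% and then 0.682% and 0.758% (log2 change -0.15 ± 0.12, DESeq2 adjusted p 0.583). Within threonine, Thr-CGU went from 40.1% ± 0.204 (SD, n = 2) to 37.2% ± 0.985 and Thr-UGU from 13.4% ± 0.0232 to 16.2% ± 0.262, and Thr-AGU had 46.6% at either stage.

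Summed over its families, Thr was the 1 amino-acid class of 22 (4.55%) that changed. It made up 5.94% and 6.11% of nuclear counts at sphere and 4.16% and 4.73% at shield (log2 change -0.43 ± 0.13, DESeq2 adjusted p 0.0244). The edgeR test gave the same change with an adjusted p of 0.117 and called 0 classes, with 2 classes (9.09%) at an unadjusted p under 0.05 by either tool. At bud Thr stood at 4.84% and 5.18%, above both shield libraries and below both sphere libraries. Its families did not share this course. Thr-CGU was lower still at bud, at 1.22% and 1.46%, below both shield libraries. Thr-AGU stood between the stages at 2.42% and 2.63%, and Thr-UGU above both at 1.19% and 1.09%. In the 6 earlier libraries the Thr class lay between 5.08% and 6.05%, and in each of the 6 stages replicate 1 had the lower value. Without shield replicate 1 the change was -0.33 and the call was lost, and it was also lost without bud replicate 2 at -0.41 (DESeq2 adjusted p 0.0519). Thr-CGU lost its call without sphere replicate 1, sphere replicate 2 or shield replicate 1, at -0.57, -0.47 and -0.41, and from resolved transcripts alone its change was -0.36 (DESeq2 adjusted p 0.2002).

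Most of the abundant Thr isodecoders were lower at shield. Of the 26 detected Thr transcripts 9 were lower and 2 higher at an unadjusted p under 0.05, where 47 and 54 of all 607 were. Their median log2 change was -0.50, and the 1 call among them was the rise of tRNA-Thr-AGU-1. The unresolved group that includes tRNA-Thr-CGU-4 lost most, from 1.19% and 1.28% of nuclear counts to 0.635% and 0.875%. tRNA-Thr-AGU-16 went from 1.25% and 1.27% to 0.820% and 0.938%, tRNA-Thr-AGU-11 from 1.06% and 1.09% to 0.694% and 0.774%, and tRNA-Thr-CGU-1 from 0.990% and 0.976% to 0.637% and 0.780%. None of these 3 passed the test over all transcripts, with DESeq2 adjusted p of 0.358, 0.294 and 0.402. tRNA-Thr-UGU-2 had 8968 and 8886 normalized counts at sphere and 5289 and 5746 at shield (log2 change -0.69 ± 0.23, DESeq2 adjusted p 0.0977), and tRNA-Thr-AGU-30 had 4167 and 4461 and then 2539 and 2887 (-0.67 ± 0.23, DESeq2 adjusted p 0.0977).

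Against these, tRNA-Thr-UGU-8, which the study had named, had 5727 and 4856 normalized counts at sphere and 6497 and 6789 at shield. It was higher in both shield libraries but did not pass the test (log2 change 0.33 ± 0.18, DESeq2 adjusted p 0.470). In share of nuclear counts all 8 libraries from egg to sphere lay below both shield libraries. Shield held 0.264% and 0.260%, and bud held 0.698% and 0.662%. The study reports a rise of tRNA-Thr-UGU-8 from shield onward by sequencing and by northern blot, and its tests took egg as the reference. In the time course used here tRNA-Thr-UGU-8 was compared with sphere. The part of tRNA-Thr-UGU-8 in the Thr-UGU family went from 27.0% and 23.2% to 38.7% and 34.3%, while that of tRNA-Thr-UGU-2 went from 42.3% and 42.4% to 31.5% and 29.0%. The study's text names tRNA-Thr-UGU-7 for a northern blot whose legend and probe list give tRNA-Thr-UGU-8, so it may not be a separate choice. tRNA-Thr-UGU-7 had 542 and 873 normalized counts at sphere and 515 and 658 at shield, which overlap (DESeq2 adjusted p 0.902).

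**Figure D4:**
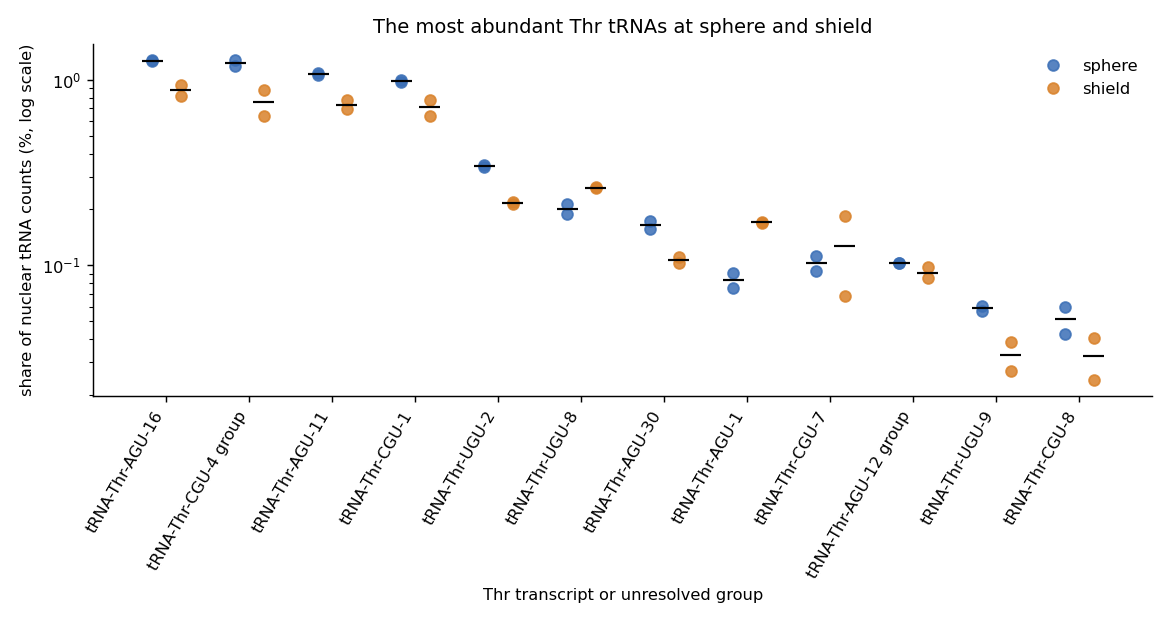
Share of nuclear tRNA counts (y axis, percent, log scale) of 12 Thr transcripts and unresolved groups (x axis), with 2 points and a mean bar per stage. They are the most abundant among the Thr entries with the largest changes in share. Entries that changed little were left out by this choice, so the balance of falls and rises shown is not that of all Thr entries. Shield (orange) lies below sphere (blue) in most of them, and tRNA-Thr-AGU-1 and tRNA-Thr-UGU-8 lie above.

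Beside Thr-AGU, the families Arg-UCU, Arg-CCG and Ile-UAU, all lower, and Ser-UGA, higher, were at an unadjusted p under 0.05. They did not pass the adjusted threshold. The arginine families Arg-UCU (reader of AGA) and Arg-CCG (reader of CGG) were at -0.31 ± 0.12 and -0.40 ± 0.16 (DESeq2 adjusted p 0.120 for both). Their shares went from 2.24% and 2.30% to 1.83% and 1.80%, and from 0.560% and 0.601% to 0.450% and 0.423%. In the egg, 256-cell and 1000-cell libraries Arg-UCU lay between 1.22% and 1.91%, below both sphere libraries. Arg-CCG lay between 0.472% and 0.621% there, above both shield libraries. Within arginine, Arg-ACG went the other way, from 42.3% ± 2.67 of Arg counts to 48.4% ± 0.276. Before sphere it lay between 46.9% and 53.6%, above both sphere libraries. Ile-UAU, which reads the isoleucine codon AUA, was at -0.33 ± 0.15 (DESeq2 adjusted p 0.239). Initiator tRNA iMet-CAU, which starts the proteins made in the cytosol, was counted as an unresolved group and was not among these families. It had 3.52% and 3.16% at sphere and 3.04% and 2.40% at shield (log2 change -0.28 ± 0.19, DESeq2 unadjusted p 0.141, adjusted p 0.474).

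None of the 5 most abundant families passed the test. Lys-UUU, the largest in all 4 libraries, held 5.75% and 6.93% of nuclear counts at sphere and 5.89% and 8.98% at shield. Glu-CUC held 5.07% and 4.65% and then 5.52% and 5.58% (log2 change 0.21 ± 0.11, DESeq2 adjusted p 0.362), with no overlap of the stages. Tyr-GUA held 4.81% and 4.92% and then 4.75% and 5.37% (0.07 ± 0.14, DESeq2 adjusted p 0.915). Asp-GUC held 4.03% and 3.78% and then 4.85% and 4.21% (0.23 ± 0.15, DESeq2 adjusted p 0.474), and Arg-ACG 4.07% and 3.502% and then 4.21% and 4.24% (0.18 ± 0.11, DESeq2 adjusted p 0.468). Shares of an anticodon within its amino acid did not overlap in 18 of 37 cases (48.6%), 8 higher and 10 lower at shield. No pair of glutamate or lysine anticodons was among them. Random order of the libraries alone would give a fraction of 0.333. Anticodons of the same amino acid are parts of a whole, so the cases are not independent.

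Grouped by the first anticodon base, families with C held 30.3% and 30.0% of nuclear counts at sphere and 29.3% and 28.6% at shield, a difference of -1.23 percentage points. From resolved transcripts alone the difference was -0.35 points. Of the 16 families with C, 4 were higher and 5 lower in both shield libraries. Of all 47 families 9 (19.1%) were higher and 12 (25.5%) lower. Thr-CGU and iMet-CAU changed by -0.761 and -0.624 points, and Glu-CUC and Trp-CCA by 0.691 and 0.405 points. Families with A held 22.9% ± 0.529 and 23.2% ± 0.984, those with G 23.9% ± 0.0940 and 24.1% ± 0.0841 and those with U 23.0% ± 0.834 and 23.7% ± 1.41. For A the difference of 0.27 points turned to -0.38 points from resolved transcripts alone. Calls among detected transcripts were 3 of 132 for A, 1 of 196 for C, 2 of 135 for G and 4 of 144 for U. Over all detected transcripts 10 of 607 (1.65%) were called.

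The summed share of long-arm tRNAs did not separate the stages. Leu, Ser and SeC together held 9.03% and 10.0% of nuclear counts at sphere and 11.02% and 9.17% at shield, and the ranges overlapped. Without shield replicate 1 the difference turned from 0.560 to -0.364 percentage points. Of 105 detected long-arm transcripts 3 were called, all higher, and of the 502 others 7 were. At an unadjusted p under 0.05 the counts were 18 higher and 3 lower for long-arm and 36 higher and 44 lower for other transcripts, with median log2 changes of 0.06 and -0.10. The replicate ratio at shield also split by arm length, with a median log2 ratio of replicate 1 over replicate 2 of 0.19 in long-arm and -0.05 in other transcripts. This split was not particular to shield. The medians were 0.18 and -0.15 at 256-cell, 0.20 and -0.04 at 1000-cell, 0.04 and -0.04 at egg and 0.01 and -0.11 at bud. At sphere they lay the other way, at -0.12 and 0.01. The part of these library differences in the 18 higher values was not tested. Size factors from the other tRNAs alone gave 31 calls (23 higher, 8 lower) that included all 10.

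The 10 long-arm families had a median log2 change of 0.18, and that of the 37 others was -0.04. Ser-UGA held 0.327% and 0.362% of nuclear counts at sphere and 0.579% and 0.388% at shield (log2 change 0.50 ± 0.25, DESeq2 unadjusted p 0.0459, adjusted p 0.359). Ser-AGA held 2.70% and 2.78% and then 3.26% and 2.71%, and Ser-GCU 1.47% and 1.24% and then 1.54% and 1.14%. Among leucine families Leu-CAG held 1.72% and 2.40% and then 1.94% and 1.95%, Leu-AAG 1.504% and 1.69% and then 2.12% and 1.59%, and Leu-UAG 0.333% and 0.407% and then 0.541% and 0.370%. Leu-UAA had 0.565% and 0.599% and then 0.528% and 0.564%, and Leu-CAA 0.278% and 0.387% and then 0.330% and 0.282%. In all of these but Ser-UGA and Leu-UAA the ranges overlapped. SeC-UCA, the tRNA that inserts selenocysteine at recoded UGA codons, had 193 and 247 counts at sphere and 780 and 726 at shield. These were 0.00754% and 0.0134% and then 0.0154% and 0.0147% of nuclear counts. Both shield libraries lay above both sphere libraries. The log2 change in the family fit was 0.54 (95% interval -0.22 to 1.30, DESeq2 adjusted p 0.488), an interval that includes 0. In the amino-acid fit the same counts gave 0.55 (95% interval 0.05 to 1.04), an interval that excludes 0. SeC was thus the class beside Thr at an unadjusted p under 0.05 (DESeq2 unadjusted p 0.0303, adjusted p 0.333), and it was not called.

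Mitochondrial tRNAs took a smaller part of the pool at shield. Their share of all tRNA counts was 16.41% (Wilson 95% interval 16.37% to 16.45%) and 16.61% (16.56% to 16.66%) at sphere, and 11.94% (11.92% to 11.97%) and 11.79% (11.76% to 11.82%) at shield. The intervals cover counting error alone. The means of 16.5% ± 0.144 and 11.9% ± 0.108 (SD, n = 2) differed by -4.64 percentage points, which exceeds the SD of either stage. An exact two-sided permutation test of 2 against 2 libraries gave p 0.333, the smallest it can give. As a ratio to nuclear counts the shield level was 0.681 of the sphere level.

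Relative to nuclear tRNAs, 16 of 22 mitochondrial tRNAs fell (DESeq2, 72.7% of those tested) and none rose, with a median log2 change of -0.57. At an unadjusted p under 0.05 there were 17 (77.3%), all lower. The edgeR test called 11, all lower. As a share of all counts, 19 of 22 (86.4%) were lower in both shield libraries than in both sphere libraries. The stage change exceeded both replicate ratios in 18 of 22. mt-tRNA-Phe-GAA-1, the most abundant in the sphere mean, held 1.93% and 2.00% of all counts at sphere and 1.27% and 1.24% at shield (log2 change -0.71 ± 0.21, DESeq2 adjusted p 0.0049). mt-tRNA-Val-UAC-1 held 1.80% and 1.602% and then 1.37% and 1.00% (-0.59 ± 0.26, DESeq2 adjusted p 0.0361). The largest fitted fall was that of mt-tRNA-Cys-GCA-1, from 0.452% and 0.503% to 0.285% and 0.296% (-0.78 ± 0.19, DESeq2 adjusted p 0.000501). mt-tRNA-Asn-GUU-1, from 0.371% and 0.395% to 0.260% and 0.249%, had the smallest adjusted p (-0.65 ± 0.14, DESeq2 adjusted p 0.00014).

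The 6 that were not called were also below 0 in the fit. mt-tRNA-Trp-UCA-1 held 1.62% and 2.09% at sphere and 1.199% and 1.95% at shield, and mt-tRNA-Ser-UGA-1 0.654% and 0.843% and then 0.533% and 0.805%. In both of them replicate 2 was the higher at either stage and the ranges overlapped (DESeq2 adjusted p 0.408 and 0.414). mt-tRNA-Glu-UUC-1 also overlapped, with 0.449% and 0.618% and then 0.342% and 0.509%. mt-tRNA-Ile-GAU-1 (-0.48 ± 0.24) and mt-tRNA-Leu-UAA-1 (-0.38 ± 0.22) had DESeq2 adjusted p of 0.0511 and 0.0977, and DESeq2 withheld an adjusted p for mt-tRNA-Ala-UGC-1, the least abundant. The number of calls rested on single libraries. It was 0 without sphere replicate 2, 5 without sphere replicate 1 and 6 without shield replicate 2, with medians between -0.59 and -0.53.

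**Figure D5:**
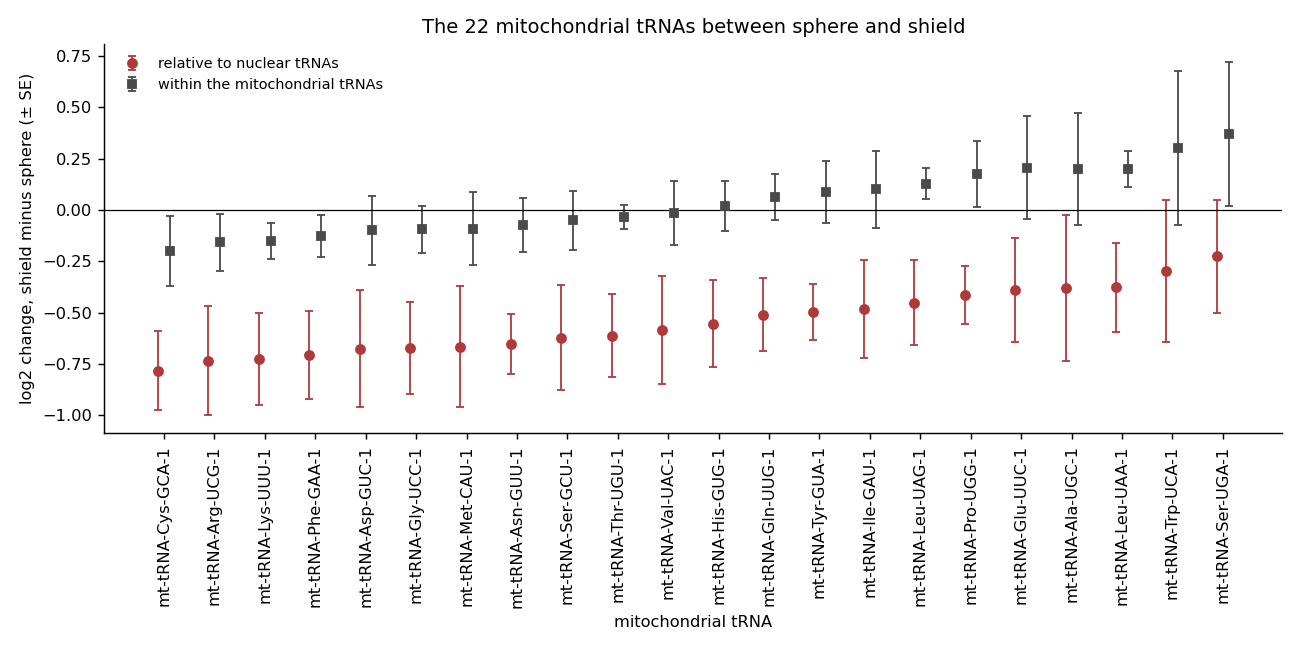
Log2 change from sphere to shield with its standard error (y axis) of the 22 mitochondrial tRNAs (x axis), scaled to nuclear tRNAs (red circles) and to the mitochondrial tRNAs themselves (dark squares). All red circles lie below 0, from -0.78 to -0.23, and the dark squares lie around 0, from -0.20 to 0.37.

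No change of composition within the mitochondrial pool passed the test. Scaled to their own size factors, 0 of the 22 were called and 1, mt-tRNA-Leu-UAA-1, was at an unadjusted p under 0.05 (log2 change 0.20 ± 0.09, DESeq2 adjusted p 0.490), and the changes ran from -0.20 to 0.37. mt-tRNA-Phe-GAA-1 went from 11.7% and 12.02% of mitochondrial counts to 10.7% and 10.5%. In vertebrates 8 mitochondrial tRNAs (Gln, Ala, Asn, Cys, Tyr, Ser-UGA, Glu and Pro) are transcribed from the opposite strand to the other 14. Against nuclear tRNAs, 5 of these 8 were called, with a median of -0.45, and 11 of the other 14, with a median of -0.62. Within the mitochondrial pool the medians of the strand groups were 0.13 and -0.04.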

How the data were processed

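Embryo tRNA was measured by mim-tRNAseq in 12 libraries, 2 for each of 6 stages. Per the labels and the methods of the study, the authors sequenced size-selected, deacylated tRNA, trimmed reads with cutadapt 3.5 and ran mim-tRNAseq against the GRCz11 tRNA set. The deposited table holds raw whole-number counts of uniquely mapped reads and, as the authors' own value, gene copies per transcript. All columns were mapped, and charging tables were not used. Size selection can act on long-arm tRNAs, and reads can be misassigned between near-identical isodecoders.

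DESeq2 1.42.0 (R 4.3.3) was fitted to the counts of all 12 libraries with a stage term, median-of-ratios size factors and default independent filtering, and stages were compared by its Wald test. A call was a Benjamini-Hochberg adjusted p of at most 0.05 over the rows kept by that filtering. Calls were counted among detected transcripts (0.005% of nuclear counts in at least 1 library). Normalized counts are counts divided by these size factors. Mitochondrial rows used the nuclear family size factors. The quasi-likelihood test of edgeR 4.0.16 was an alternative, beside other size factors, fits of fewer libraries, a replicate block and other detection limits. In simulated counts for shield against sphere over 2505 transcripts, changes were planted in detected transcripts, 150 of each size over 3 draws. DESeq2 recovered 87.3% of 4-fold, 42.7% of 2-fold and 13.3% of 1.5-fold changes. It called 18 of 1221 unchanged detected transcripts (1.47%). Far more transcripts were changed there than were called in the real data. Simulated libraries also shared no replicate differences between stages, so these rates need not carry over.

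Named transcripts were all calls, the 5 largest rises and falls in share and, at 0.1% of nuclear counts or more, in log2 change among those whose stages did not overlap, and 4 that the study named. Named families were those at an unadjusted p under 0.05, the 5 most abundant, Leu, Ser and SeC, and iMet. Other Ser-CGA, Ser-UGA and Arg members and the unresolved Thr group were named after their values were seen. Members and lists were chosen with earlier results of these data known.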

Additional observations from a re-analysis of the deposited data

How the results depend on the processing

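The count of 10 transcripts was 4 with edgeR, 6 from the 4 libraries alone, 25 with total nuclear counts as size factors, 31 with size factors that leave out long-arm tRNAs, 38 with only detected transcripts in the fit, 31 with filtering set for 0.05 and 20 with adjustment over detected transcripts alone. The split was 20 higher and 5 lower with total scaling and 29 higher and 9 lower with only detected transcripts. Families gave 0 calls with edgeR, 2 from the 4 libraries alone and 0 from resolved transcripts, and amino acids gave 0 with edgeR. Leaving out each library in turn gave 0 to 17 transcripts, 0 to 2 families, 0 to 2 amino acids and 0 to 18 mitochondrial tRNAs. The cause of these moves was not tested.

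With the replicate number as a block, 39 transcripts (24 higher, 15 lower), 2 families (Thr-CGU and Thr-AGU, the latter with DESeq2 adjusted p 0.000123), 1 amino acid and 13 mitochondrial tRNAs were called. The methods place replicates of a stage on different days, but neither they nor the labels say that equal numbers share a day, so the numbers were not taken as pairs. Replicate differences correlated between stages with r from -0.17 to 0.86 over 607 transcripts, which are not independent, and 13 of 15 pairs of stages were above 0.1.

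With their own size factors the mitochondrial tRNAs gave 0 calls, as this scaling centres them near 0, and for the same reason 11 had values above 0, namely Ala-UGC 0.20, Gln-UUG 0.063, Glu-UUC 0.21, His-GUG 0.020, Ile-GAU 0.10, Leu-UAA 0.20, Leu-UAG 0.13, Pro-UGG 0.17, Ser-UGA 0.37, Trp-UCA 0.30 and Tyr-GUA 0.088. Leaving out libraries also turned features that were not called. Leu ran from -0.11 to 0.24, Ser from -0.042 to 0.30, tRNA-Ala-AGC-3 from -0.19 to 0.063, tRNA-Thr-UGU-7 from -0.57 to 0.11, mt-tRNA-Ser-UGA-1 from -0.56 to 0.047 and mt-tRNA-Trp-UCA-1 from -0.70 to 0.017. From resolved transcripts the difference of anticodons starting with A turned to -0.38 percentage points, from 0.27 over all nuclear entries. With C it was -0.35, with G 0.11 and with U 0.62 points. Of 1289 values of 65 named features, 1073 kept direction and side of the threshold, 124 lost a call and 72 gained one. Depth limits transcripts near 0.005% of nuclear counts, and 2 libraries a stage limit all tests.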

Other observations

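The largest unresolved nuclear entry was the group that includes tRNA-Lys-UUU-155, which held 5.39% and 6.64% of nuclear counts at sphere and 5.36% and 8.61% at shield, so most of the spread of the Lys-UUU family between shield libraries lay in this group. Asn-GUU had 2 groups that went opposite ways. The group that includes tRNA-Asn-GUU-82 went from 0.426% and 0.483% to 0.686% and 0.728%, and the group that includes tRNA-Asn-GUU-200 from 1.10% and 1.05% to 0.966% and 0.852%, while the family held 2.14% and 2.08% and then 2.38% and 2.04%. Of the 73 unresolved groups 22 were higher and 15 lower in both shield libraries than in both sphere libraries. Of the 607 detected transcripts 126 were higher and 151 lower in this way (45.6%). The unresolved groups were not tested one by one.

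The differences between replicates were shared between some stages and not others. The log2 ratios of replicate 1 over replicate 2 at shield correlated with those at 1000-cell with r of 0.86 across 607 transcripts, with those at sphere with r of 0.51 and with those at 256-cell with r of -0.17. Transcripts are not independent replicates, and the points share libraries, so these are descriptions. Over 2-fold differences in favour of replicate 1 were seen in 63 transcripts at shield, 54 at 1000-cell and 34 at sphere.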
